A study of Homo sapiens with 9 samples.

Results

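Regions of open chromatin were compared between the 2 siRNAs that were each used to deplete INO80 in HepG2 cells, a line from a human liver tumour. The members were the ATAC-seq peak intervals on chromosomes 1 to 22 that one siRNA's list held and that no interval of the other siRNA's list overlapped by 1 bp or more. Of 68344 intervals with siINO80#1, 32794 had no match in the siINO80#2 list. Of 52399 intervals with siINO80#2, 16311 had no match in the siINO80#1 list. The members were thus 49105 of the 120743 intervals of the 2 siINO80 lists, and the series as a whole held 189527 intervals on these chromosomes in 3 lists.

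All groups were HepG2 cells that received an siRNA at 50 nM by lipid transfection and were collected 72 hours later. NTG received a non-targeting control siRNA, siINO80#1 the first siRNA against INO80, and siINO80#2 the other. Each group had 3 replicates, but the sample descriptions pointed the 3 replicates of a group to the same peak list. Consequently, no spread between replicates could be computed, no test between the siRNAs was possible, and no p-value is given. The intervals in parentheses are 95% Wilson intervals of a share or Newcombe intervals of a difference, and they cover counting error only. The siRNA and everything else that differed between the pooled libraries of the 2 groups cannot be told apart.

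INO80 is the ATPase of a large remodeling complex that slides and spaces nucleosomes and acts on nucleosomes with the histone variant H2A.Z. An siRNA is loaded into an Argonaute protein and directs cleavage of a matching messenger RNA, and through its short seed it can also lower other transcripts, so that different siRNAs against a gene share the intended target but not the unintended ones. ATAC-seq uses a transposase that inserts sequencing adapters where DNA is accessible, and active promoters and enhancers therefore appear as peaks. The siRNA sequences were in none of the sources used here, so seed matches were not analysed.

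Examples of the 2 sequence contexts described below are shown first. Each is the 200 bp window around a summit on the plus strand of GRCh37, and each matched a single place in the genome at 90% identity over 90% of its length. The first is a window with an AP-1 motif among the strongest intervals without a match, and capitals mark the motif, TGACTCA or TGAGTCA on the strand printed. It lies between genes, nearest to the pseudogene EZRP1 (chr3:104347131-104347330, siINO80#2 only). NTG had an overlapping interval there, of fold enrichment 2.70.
EZRP1: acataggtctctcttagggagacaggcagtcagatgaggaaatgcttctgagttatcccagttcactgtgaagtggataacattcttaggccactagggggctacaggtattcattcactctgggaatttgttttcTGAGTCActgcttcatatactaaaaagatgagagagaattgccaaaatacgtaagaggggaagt
The others are promoters that were open with 1 siRNA only, and capitals mark each CpG dinucleotide. MFSD14B (chr9:97136694-97136893) and ZNF354A (chr5:178157659-178157858) were open with siINO80#1 only, and KDM1A (chr1:23345702-23345901) and C6orf58 (chr6:127840358-127840557) with siINO80#2 only.
MFSD14B: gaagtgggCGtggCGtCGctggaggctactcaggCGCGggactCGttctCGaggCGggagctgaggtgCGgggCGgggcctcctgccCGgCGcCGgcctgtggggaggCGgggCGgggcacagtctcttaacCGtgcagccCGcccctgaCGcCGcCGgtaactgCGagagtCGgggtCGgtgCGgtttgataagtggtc
ZNF354A: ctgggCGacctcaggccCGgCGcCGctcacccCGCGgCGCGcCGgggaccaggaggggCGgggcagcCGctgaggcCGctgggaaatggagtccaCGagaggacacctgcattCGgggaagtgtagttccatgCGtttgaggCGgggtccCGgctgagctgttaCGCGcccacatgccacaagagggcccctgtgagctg
KDM1A: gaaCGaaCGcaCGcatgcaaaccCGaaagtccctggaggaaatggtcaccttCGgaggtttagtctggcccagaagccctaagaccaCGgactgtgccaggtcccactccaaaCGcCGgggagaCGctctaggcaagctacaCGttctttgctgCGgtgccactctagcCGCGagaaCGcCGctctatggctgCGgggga
C6orf58: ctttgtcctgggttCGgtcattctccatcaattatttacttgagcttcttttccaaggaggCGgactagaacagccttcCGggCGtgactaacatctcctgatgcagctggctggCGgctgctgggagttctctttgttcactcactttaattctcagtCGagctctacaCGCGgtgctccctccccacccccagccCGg
The windows of MFSD14B and ZNF354A held 24 and 19 CpG at a GC content of 72% and 70.5%. KDM1A held 16 at 60.5% and C6orf58 held 9 at 54.5%. The C6orf58 window lay nearer to the start site of SOGA3. The AP-1 window held 1 CpG at 42.5%.

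The identity of the cells was checked on promoters, a promoter being open in a list when an interval lay within 1 kb of any annotated start site of the gene. Of 12 hepatocyte markers, 9 were open with both siRNAs, among them APOA1, APOB and SERPINA1, and 2 with siINO80#1 only. FGB, a fibrinogen chain, was open with neither. Of 9 markers of other cell types, 8 were open with neither siRNA. PTPRC, the leukocyte antigen CD45, had an interval with siINO80#1 only, of 14 reads at the summit. The promoter of INO80 itself (chr15:41408278-41409100 with siINO80#1) was open in all 3 lists, with a fold enrichment of 4.95 with siINO80#1, 4.09 with siINO80#2 and 4.51 with NTG. No summit lay within the INO80 gene body in either siINO80 list. These lists hold no transcript or protein level, so the depletion by each siRNA was not measured here.

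The first comparison asked how strong the regions found with 1 siRNA were. Without a match were 48% of the siINO80#1 intervals (47.6 to 48.4) and 31.1% of the siINO80#2 intervals (30.7 to 31.5). The rule chose them by presence in a list, and a list ends at a significance threshold, so their strength is a description. Strength is given as the fold enrichment, the authors' ratio of reads at the summit over local background, and as its percentile within the list, where 100 is the strongest. Intervals with siINO80#1 only had a median fold enrichment of 2.68, against 4.34 for the siINO80#1 intervals that were shared. Intervals with siINO80#2 only had a median of 2.65, against 3.77 for shared ones. Their median width was 218 and 209 bp, compared with 515 and 439 bp in the shared class.

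Weak peaks were mostly not shared, and strong peaks mostly were. Each list was divided into 10 nearly equal parts by fold enrichment. In the weakest part, 78.2% of siINO80#1 and 57.5% of siINO80#2 intervals had no match. In the strongest part this was 1.19% (0.953 to 1.47) and 0.133% (0.0644 to 0.274), or 81 and 7 intervals. In each part a larger share was unmatched in the longer siINO80#1 list. With a −log10 q reaching 5 in the list examined, 16% of the siINO80#1 and 4.98% of the siINO80#2 intervals still had no match anywhere in the other list, which left 5193 and 1239 intervals. At equal list sizes of 52399, the strongest siINO80#1 intervals being kept, the unmatched shares were 38.1% and 36.6%. With both lists held to a −log10 q reaching 5 they were 33.3% and 12.5%.

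**Figure D1:**
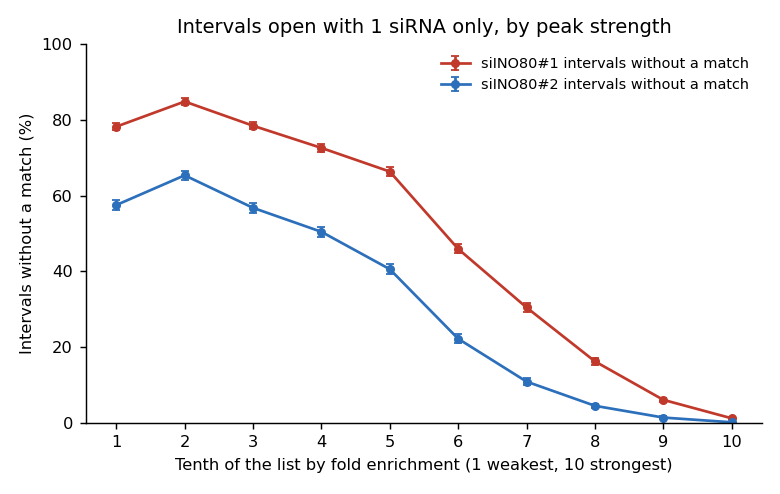
Percentage of intervals with no overlapping interval in the other siRNA's list (vertical axis), for 10 nearly equal parts of each list ordered by fold enrichment (horizontal axis, 1 weakest), with 95% Wilson intervals as bars. The curves go from 78.2% with siINO80#1 and 57.5% with siINO80#2 in the weakest part to 1.19% and 0.133% in the strongest, and siINO80#1 lies above siINO80#2 throughout.

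The depth behind the 2 lists was similar. The number of reads is not in the files, but whole read numbers at the summit were recovered from fold enrichment and −log10 p under the formulas of the peak caller. The lowest background was 5.16 reads with siINO80#1 and 5.34 with siINO80#2. For a relative read number, each background was divided by the smallest interval width of its list, 140 and 144 bp. That this width reflects the call settings was assumed and not checked. The relative read number of siINO80#1 over siINO80#2 came to 0.994. The median summit held 18 reads in both unmatched classes, against 36 and 31 in the shared ones. At 40 to 60 reads, 8.0% of siINO80#1 intervals (7.45 to 8.59) and 1.67% of siINO80#2 intervals (1.40 to 2.00) were unmatched. At the edge of the rule, 99 siINO80#1 and 96 siINO80#2 intervals lay 10 bp or less from an interval of the other list, with a median fold enrichment of 2.73 and 2.62. By comparison, 144 and 138 overlapped it by 10 bp or less, with medians of 2.60 and 2.56. Most members were far from the edge, at a median distance of 10.7 kb (siINO80#1 only) and 6.73 kb (siINO80#2 only) to the nearest interval of the other list.

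The second comparison used the NTG list, which the rule did not use. Of the intervals with siINO80#1 only, 27.5% overlapped an NTG interval, and of those with siINO80#2 only, 20.3%. The difference was 7.21 percentage points (6.42 to 7.99). It had the same sign in each of 5 strength classes, each holding nearly equal parts of the lists by fold enrichment, from 3.86 points in the weakest to 13.4 points (2.14 to 25) in the strongest. Most members were thus in neither of the other lists, namely 23790 with siINO80#1 and 13008 with siINO80#2. The NTG list was shallower, with a lowest background of 3.82 reads. By the recovered values, the relative read numbers of siINO80#1 and siINO80#2 over NTG were 1.43 and 1.44. A weak region without an NTG match therefore need not have been closed in NTG. Of shared intervals, 83.1% and 82.9% had an NTG match. Among members with a −log10 q reaching 5, an NTG match was found for 57.9% with siINO80#1 only and for 47.0% with siINO80#2 only.

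The third comparison asked where in genes the members lay. A summit within 1 kb of an annotated start site was found for 14.4% of siINO80#1-only and 9.98% of siINO80#2-only intervals, a difference of 4.38 points (3.78 to 4.97). Windows of 200 bp placed every 100 kb along the genome gave 7.75%, and shared intervals gave 34.5% and 35.1%. Introns held 48.5% of siINO80#1-only and 50.7% of siINO80#2-only intervals, and 34.1% and 36.6% lay between genes. The excess of start sites with siINO80#1 only was larger where NTG also had an interval (23.9% against 16%) than where it had none (10.8% against 8.46%). With a −log10 q reaching 5 it was 20.4% against 11.2%. However, at equal list size the difference shrank to 0.832 points (0.170 to 1.49).

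GC content separated the members of the 2 siRNAs most at its upper end. The median over 200 bp at the summit was 45.5% for siINO80#1 only and 44% for siINO80#2 only, against 50.5% in both shared classes and 40% in the genome windows. Below 35% GC, 77.7% of siINO80#1 and 66.5% of siINO80#2 intervals were unmatched. At 70% GC or more, 23.8% of siINO80#1 intervals (22.7 to 25) and 3.39% of siINO80#2 intervals (2.85 to 4.02) were. There were 1210 siINO80#1-only against 125 siINO80#2-only intervals in this class, or 9.68 to 1, compared with 1.5 to 1 below 35% GC. At equal list size the ratio was between 0.805 and 1.10 in every GC class below 70%, whereas in the class of 70% or more it was 2.17, from 668 and 308 intervals.

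Fold enrichment was also compared in regions open with both siRNAs, as a description, since peak strength decides which regions enter a list. For 35045 regions paired by their largest overlap in both directions, the fold enrichment with siINO80#1 was 1.12 times that with siINO80#2 in the median (middle 50% of pairs from 0.967 to 1.31), and it was higher with siINO80#1 in 69.7%. Each fold enrichment is relative to the background of its own list. The median ratio was 1.03 below 35% GC and 1.22 at 70% or more. It was 1.15 at start sites, 1.10 in introns and 1.10 between genes. It was 1.09 where the window held an AP-1 motif and 1.13 where it did not. The rank correlation of GC content with the ratio was 0.120 across the pairs, which are regions of the same 2 lists and not independent replicates.

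**Figure D2:**
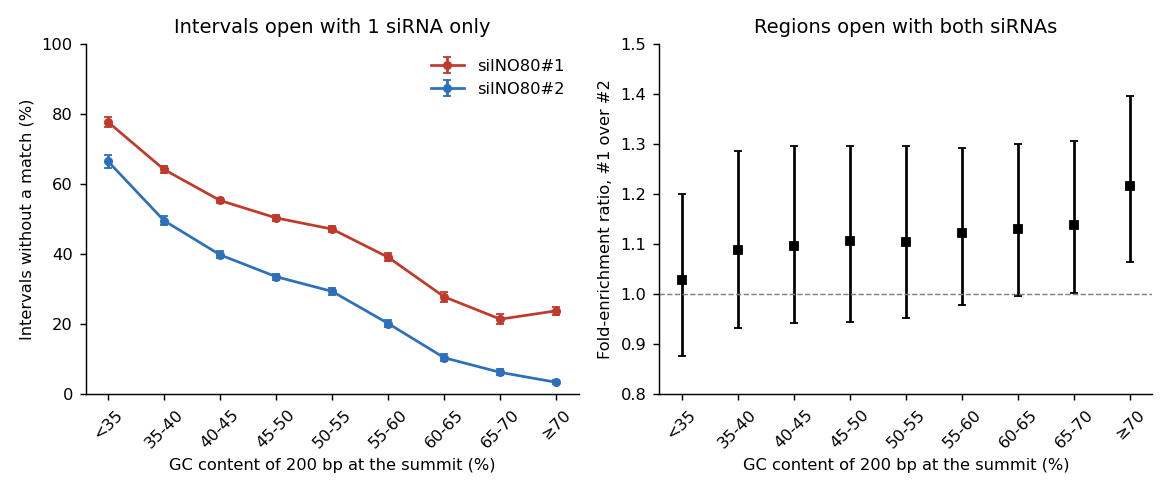
Left, percentage of intervals of each list with no match in the other list against the GC content of 200 bp at the summit, with 95% Wilson intervals. Right, ratio of fold enrichment, siINO80#1 over siINO80#2, in regions open with both (squares, median; bars, middle 50% of regions), which is 1.03 below 35% GC and 1.22 at 70% or more; the dashed line marks equal enrichment.

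The NTG intervals gave a view from a list outside the pair. Of 68784 NTG intervals, 56.3% were also open with siINO80#1 and 47.9% with siINO80#2. In total 8947 were matched by siINO80#1 and not by siINO80#2, and 3151 by siINO80#2 and not by siINO80#1. At 70% GC or more, 89.9% (89.0 to 90.8) were matched by siINO80#1 and 75.8% (74.5 to 77.0) by siINO80#2. There, 742 were matched by siINO80#1 alone and 73 by siINO80#2 alone. Below 35% GC the corresponding counts were 286 and 170. This look at the NTG list was added after seeing the data. The siRNA and a difference between the libraries in how GC-rich DNA was recovered cannot be told apart.

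**Figure D3:**
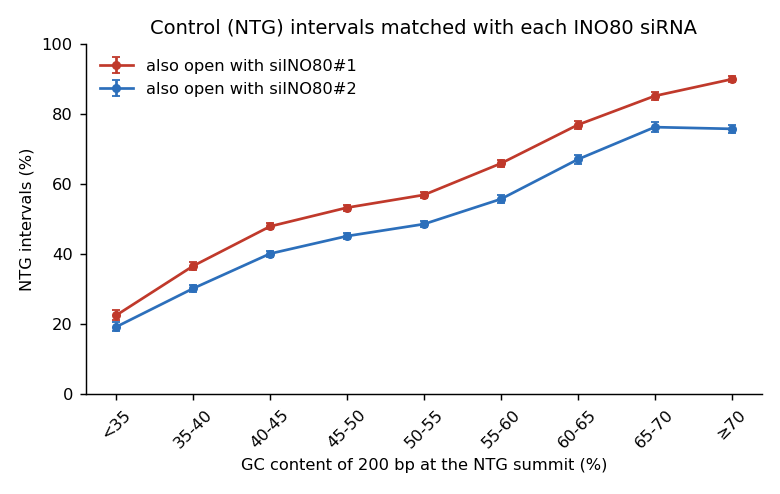
Percentage of NTG intervals that overlap an interval of each siINO80 list (vertical axis), by the GC content of 200 bp at the NTG summit (horizontal axis), with 95% Wilson intervals. Matches with siINO80#1 reach 89.9% in the class of 70% GC or more, where those with siINO80#2 are at 75.8%.

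Sequence motifs were then counted in the 200 bp windows on both strands. The motifs were short strings, none of which contains another, and a match is a description and not a binding site. AP-1 (TGACTCA), bound by dimers of JUN and FOS proteins, was found in 9.99% of siINO80#1-only and 10.3% of siINO80#2-only windows, compared with 3.15% of genome windows and 19.1% and 18.4% of shared windows. The difference was −0.356 points (−0.930 to 0.208). Among members with a −log10 q reaching 5, AP-1 was less frequent with siINO80#1 only, at 16.2% against 22.4%, a difference of −6.24 points (−8.84 to −3.78).

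The stronger members differed in AP-1 by whether NTG had the region too. Of the 2184 siINO80#1-only intervals with a −log10 q reaching 5 and no NTG match, 23.6% (21.9 to 25.5) held the AP-1 motif. Of the 657 siINO80#2-only intervals of this kind, 28.5% (25.1 to 32.0) did. With an NTG match the shares were 10.8% (9.74 to 12) of 3009 and 15.6% (12.9 to 18.8) of 582. Regions shared by both siRNAs and without an NTG match stood higher than either, at 40.6% of siINO80#1 and 44.2% of siINO80#2 intervals. They were also stronger than single-siRNA regions without NTG, with a median fold enrichment of 4.06 and 3.95 against 3.74 and 3.70. Shared regions with an NTG match held AP-1 at 17.7% and 18.3%. Thus in each siRNA's list, stronger regions open with that siRNA alone held AP-1 less often than shared regions without NTG. They held it more often than single-siRNA regions with NTG. Over all members, weak ones included, the split by NTG was small. With siINO80#1 only, AP-1 was found in 10.4% without and 8.78% with an NTG match. With siINO80#2 only, it was found in 10.4% and 10.1%.

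The SP/KLF, CTCF and FOXA strings were more frequent with siINO80#1 only. SP/KLF (GGGGCGGGG), a GC box bound by SP and KLF zinc finger proteins, was found in 1.43% of siINO80#1-only and 0.448% of siINO80#2-only windows, a difference of 0.986 points (0.817 to 1.15) that was 0.503 (0.295 to 0.712) at equal list size and −0.256 (−5.85 to 1.44) in strength class 5. CTCF (AGNGGGCGC), a string from the site of the insulator protein, was found in 1.19% and 0.527%, a difference of 0.659 points (0.493 to 0.818), whose interval held 0 in strength classes 2 (−0.0883 to 0.456) and 5 (−3.73 to 4.18). FOXA (TGTTTAC), the site of liver pioneer factors, stood at 4.85% and 3.97%, a difference of 0.882 points (0.497 to 1.26). Among members with a −log10 q reaching 5 it was 1.42 points (−0.0993 to 2.73). There it was −0.242 (−2.66 to 1.70) with an NTG match and 3.12 (1.06 to 4.85) without. HNF4A, ETS and CRE strings were also more frequent, by 0.195 (0.0412 to 0.339), 0.109 (0.0104 to 0.197) and 0.100 (0.0307 to 0.162) points. Among members with a −log10 q reaching 5, their intervals held 0. NRF1 (GCGCATGCG) was found in 34 of 32794 and 4 of 16311 windows. HNF1 (TTAATNATT) was the other way, at 1.42% and 1.69% (difference −0.271 points, −0.514 to −0.0412), below the 2.36% of genome windows. Among members with a −log10 q reaching 5, the intervals of both NRF1 (−0.129 to 0.354) and HNF1 (−1.06 to 0.487) held 0. For the YY1, NF-Y, TEAD, NF-kB, CEBP and Alu strings the interval of the difference held 0. No value was adjusted for the 15 strings examined.

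**Figure D4:**
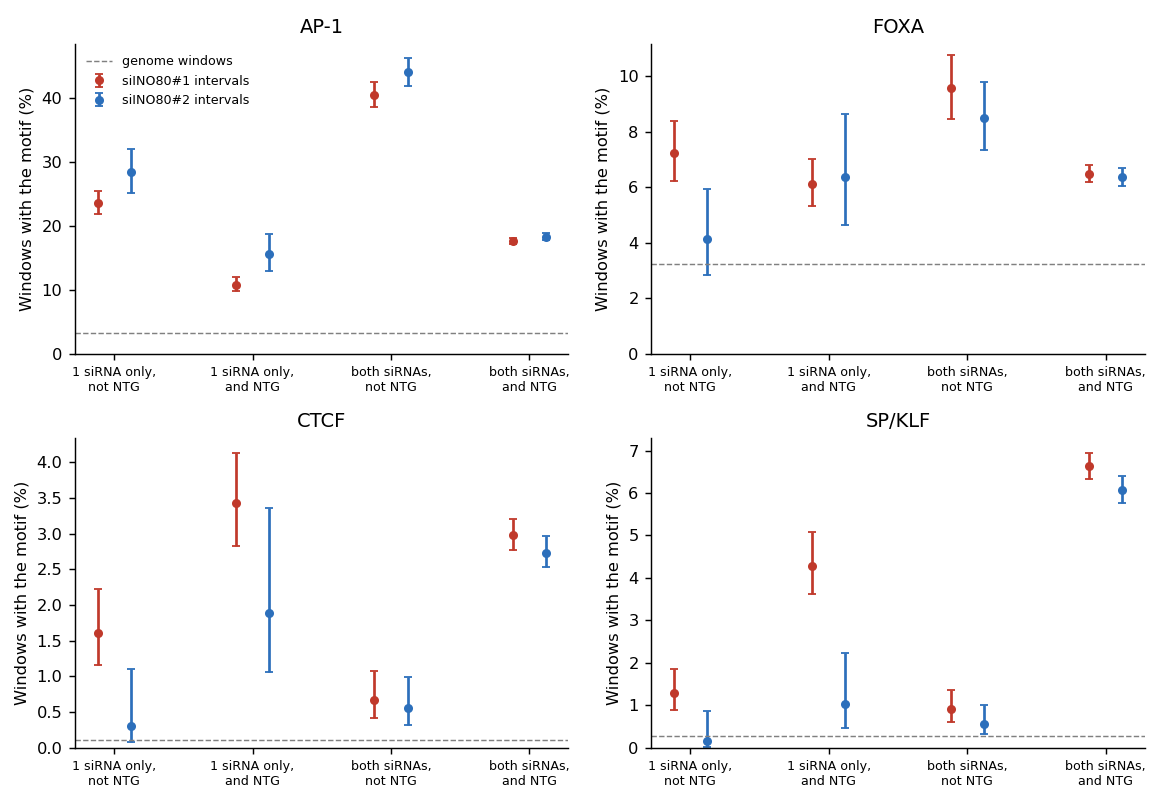
Percentage of 200 bp summit windows that hold the AP-1, FOXA, CTCF or SP/KLF string (vertical axes), for intervals with a −log10 q reaching 5, by whether the other siRNA's list and the NTG list hold an overlapping interval (horizontal axes); bars are 95% Wilson intervals and the dashed line is the share of windows spaced every 100 kb. AP-1 is highest in regions open with both siRNAs and not with NTG (40.6% and 44.2%).

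The fourth comparison asked which promoters were open with 1 siRNA. Of 19229 protein-coding genes, 10291 had an open promoter with both siRNAs, 1589 (8.26%) with siINO80#1 only, 293 (1.52%) with siINO80#2 only and 7056 with neither. Of the siINO80#1-only promoters, 1103, or 69.4% (67.1 to 71.6), were also open with NTG. Of the siINO80#2-only promoters, 151, or 51.5% (45.8 to 57.2), were. The intervals at siINO80#1-only promoters had a median GC content of 67%, close to the 66.5% of promoters open with both, and those at siINO80#2-only promoters had 56.5%. SP/KLF was found at 15.6% and 6.57% of them. At equal list size, which removes the weakest siINO80#1 intervals, 960 promoters were open with siINO80#1 only and 683 with siINO80#2 only. With both lists held to a −log10 q reaching 5 there were 1836 and 243.

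Of the first 8 promoters open with siINO80#1 only, 4 held 19 to 27 CpG in the summit window, and 2 of these had near-identical copies elsewhere in the genome. The promoter of RABL2B, a RAB-like GTPase gene, was 5 bp from the summit (chr22:51221852-51222068), with a fold enrichment of 8.93 at percentile 96.2 with siINO80#1 and no interval in NTG, and its window matched 2 places in the genome. ANKRD20A3 had a fold enrichment of 7.96 with siINO80#1 and 10.8 with NTG, and its window matched 4 places. A fold enrichment at such windows depends on how reads with several matches were placed, which is not given in the sources used here. MFSD14B, which encodes a transporter-like membrane protein, had a single match, a fold enrichment of 7.31 at percentile 92.2 with siINO80#1, 4.57 at percentile 71.8 with NTG, and the nearest siINO80#2 interval at 115 kb. ZNF354A, a zinc finger gene, had 6.51 at percentile 89.2 with siINO80#1 and 5.12 at percentile 77.6 with NTG.

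The other 4, OR2A14, RASSF10, AFP and VNN1, held 2 or 3 CpG, and their intervals overlapped a siINO80#2 interval that ended more than 1 kb from the start site. In all, 33 of the 1589 and 13 of the 293 genes were of this kind. AFP, the fetal serum protein that hepatoma cells make, had a fold enrichment of 7.46 with siINO80#1 and 7.02 with NTG, and the siINO80#2 interval lay 1055 bp from its start site. Both siINO80 lists held the AFP region, and the call at 1 kb alone differed.

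With siINO80#2 only, the promoters ranked first were weaker. DKK2, a secreted inhibitor of WNT signalling, had a fold enrichment of 5.38 and C1orf100 of 5.16, both with an interval that siINO80#1 shared beyond 1 kb. TVP23C and its read-through TVP23C-CDRT4 had 4.89 in NTG-matched sequence that occurs at 2 places. KDM1A, which encodes a histone H3 lysine demethylase, had a fold enrichment of 4.42 at percentile 74.8 with siINO80#2 and of 3.11 at percentile 39.6 with NTG, and the nearest siINO80#1 interval was 42.1 kb away. The summit lay 209 bp from a start site of TEX46. C6orf58 and the gene ENSG00000255330 shared an interval of fold enrichment 4.06 that NTG did not have, 142 and 312 bp from their start sites. Its nearest start site was that of SOGA3, at 22 bp.

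The gene lists of liver, stress and RNA interference functions contained 162 protein-coding genes on these chromosomes. Of these, 114 were open with both siRNAs, 18 (11.1%) with siINO80#1 only and 2 (1.23%) with siINO80#2 only, beside 8.26% and 1.52% of all protein-coding genes. Open with neither were 28 of the 162 listed genes and 36.7% of all protein-coding genes, so these shares are not directly comparable. Of the 18, 14 were also open with NTG and 6 had a −log10 q reaching 5. Their percentiles ran from 0.0154 to 92.7 with a median of 31.0. Most of these differences therefore rested on weak peaks.

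**Figure D5:**
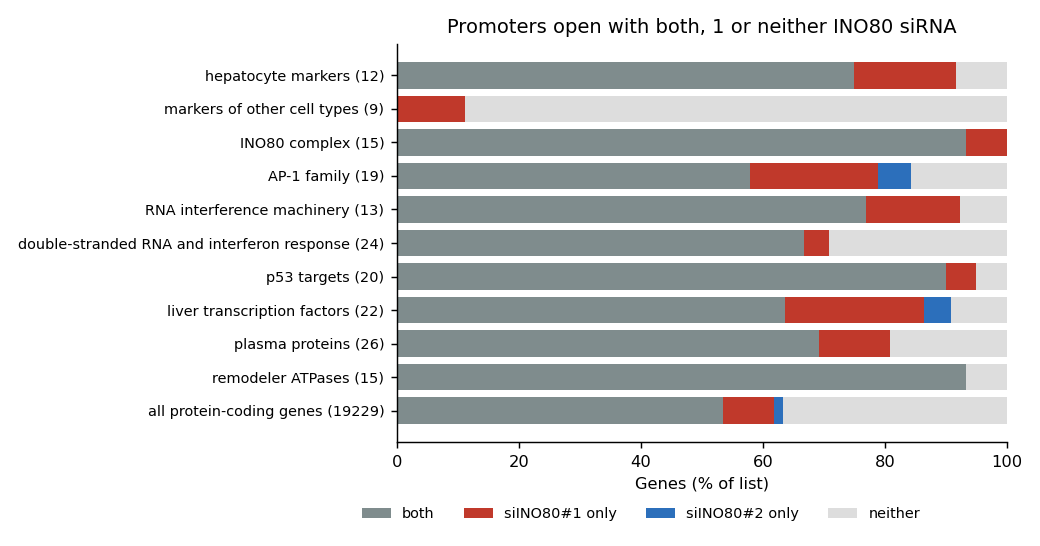
Percentage of the protein-coding genes of each list (number in parentheses) whose promoter was open with both INO80 siRNAs, with siINO80#1 only, with siINO80#2 only or with neither. The last bar gives all 19229 protein-coding genes, of which 8.26% were open with siINO80#1 only and 1.52% with siINO80#2 only.

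Liver transcription factors had the most genes of this kind, with 5 of 22 open with siINO80#1 only and 1 with siINO80#2 only. ONECUT1, the factor HNF6, had a fold enrichment of 3.48 with siINO80#1, NR1I3, the xenobiotic receptor CAR, 3.14, and CEBPA, a regulator of hepatocyte differentiation, 2.64. CEBPB had 1.68, near the bottom of the list. These 4 were open with NTG. NR1H4, the bile acid receptor FXR, was open with siINO80#2 at a fold enrichment of 3.15, and the nearest siINO80#1 interval was 1965 bp from its start site. NTG had an interval of 3.32 at another start site of the gene.

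Of the 26 plasma protein genes, 3 were open with siINO80#1 only. Besides AFP these were ALB, which encodes serum albumin, with a fold enrichment of 3.25, and PLG, the plasminogen gene, with 3.39. The nearest siINO80#2 intervals lay 1046 bp from an ALB and 1357 bp from a PLG start site, just past the limit of 1 kb. All 3 were open with NTG. The NTG interval taken for ALB (chr4:74277371-74278514) lay at another start site than the siINO80#1 interval (chr4:74262582-74262883).

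The AP-1 family held 4 of 19 genes with siINO80#1 only and 1 with siINO80#2 only. FOSB had a fold enrichment of 2.77 with siINO80#1, MAFF 2.73, BATF2 2.34 and MAFG 1.84, and FOSB and BATF2 were open with NTG. BATF had an interval of 2.41 with siINO80#2 only, 804 bp from its start site. Genes of this family encode the proteins that bind the AP-1 motif, and small MAF proteins among them bind related sites.

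Of 13 genes of RNA interference and microRNA processing, 10 were open with both siRNAs and none with siINO80#2 only. AGO1, an Argonaute, had a fold enrichment of 2.55 with siINO80#1 and 4.58 with NTG, and DGCR8, which recognises primary microRNAs, had 2.70 and 3.07, both without a siINO80#2 interval at the promoter. Of 24 genes that respond to double-stranded RNA and interferon, 16 were open with both and 7 with neither. OAS2, an antiviral synthetase, was open with siINO80#1 only, with 14 reads at the summit and a −log10 q of 1.43. Of 20 p53 targets, 18 were open with both, and BBC3, which encodes the death protein PUMA, was open with siINO80#1 (2.98) and NTG only.

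Of the INO80 complex, 14 of 15 genes were open with both siRNAs. The exception, MCRS1, a subunit that the complex shares with other chromatin complexes, had an interval over its start site with siINO80#1 (chr12:49961538-49962690) at a fold enrichment of 3.27 and a −log10 q of 6.36. NTG had an interval of 3.15 there, and the nearest siINO80#2 interval was 12501 bp away. Of 15 remodeler ATPase genes, 14 were open with both and CHD3 with neither.

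Most of the strongest intervals without a match were intronic or intergenic, while those of ANKRD20A5P, RABL2B, ENSG00000284746 and STARD13-AS lay 82, 5, 105 and 60 bp from a start site. The first with siINO80#1 lay in an intron of PARN, a poly(A) ribonuclease gene (chr16:14580566-14580991), with 385 reads at the summit, a fold enrichment of 21.1 and an NTG match. The nearest siINO80#2 interval was 10.4 kb away. The second lay nearest to MTIF3 (chr13:28033711-28033974), with 98 reads, a fold enrichment of 14 and no NTG match. ZFC3H1, CDH12, NEK5 and GCNT1P4 followed among single-match windows, at 8.68 to 8.93. Windows near ENSG00000260610, ANKRD20A5P, RABL2B and ENSG00000284746 matched 4, 4, 2 and 14 places in the genome. Of the 10 siINO80#1 intervals, 6 had an NTG match. AP-1 was found in the window of ZFC3H1.

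With siINO80#2 the first was in an intron of PLD5 (chr1:242630946-242631217), with 55 reads, a fold enrichment of 8.84 and an NTG match. The second was nearest to PLN, which encodes the cardiac calcium pump inhibitor phospholamban (chr6:118872209-118872530), at 6.94, again with an NTG match. ATRNL1, OFCC1, LINC01378, ENSG00000257431, EZRP1 and ENSG00000216359 followed at 6.12 to 6.63. Then 5 intervals tied at 6.0, nearest to KRT18P28, LINC01493, ENSG00000280134, STARD13-AS and LINC00615. The 13 windows named here matched a single place. Among the 13 intervals, only those of OFCC1 and LINC01378 had no NTG match. AP-1 was found in the windows of LINC01378, EZRP1 and KRT18P28. The intervals near ENSG00000216359 and STARD13-AS lay 260 and 110 bp from a siINO80#1 interval.

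Genes with the most members in their body were very long, and mostly the same for both siRNAs. In LRP1B, a lipoprotein receptor-related gene of 1900 kb, 96 of 135 siINO80#1 intervals and 61 of 99 siINO80#2 intervals were unmatched. MACROD2 had 91 of 134 and 49 of 95, and EYS 89 of 130 and 63 of 105. ERBB4, a receptor tyrosine kinase gene, had 69 of 96 and 45 of 72, and NKAIN2 had 53 of 66 and 36 of 48. Over all intervals, 48% with siINO80#1 and 31.1% with siINO80#2 were unmatched. PLCL1, on the siINO80#2 side, was the one with more siINO80#2-only intervals, at 44 of 56 against 39 of 51. These 6 genes lie on chromosomes 2, 6 and 20. There the unmatched shares were high, at 58.8% and 45.7% on chromosome 2, 54.4% and 39.3% on chromosome 6, and 52.4% and 37.7% on chromosome 20.

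By chromosome, the number of siINO80#1-only per siINO80#2-only interval was 2.01 over all. It was lowest on chromosomes 14 (1.58), 2 (1.67), 20 (1.78), 16 (1.80) and 6 (1.81), and highest on chromosomes 19 (3.06) and 22 (3.37). Chromosomes 2 and 6 also had the densest siINO80#1 intervals, with 48.7 and 42.5 per Mb, against 8.60 on chromosome 22. Chromosomes 20 and 14 came next, with 34.5 and 33.4 per Mb, whereas chromosome 16 had 22.4. The cause of these differences between chromosomes was not tested.

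Finally, some regions were found with both siRNAs but at very different ranks. The largest excess with siINO80#1 was in an intron near GRB14, an adaptor of the insulin receptor, at percentile 92.7 with siINO80#1 and 9.78 with siINO80#2, from 59 and 19 reads. TECRP1 stood at 89.4 and 8.56, PNO1 at 85.8 and 5.10, and ENSG00000273069 at 88.7 and 12.1. The promoter of ITGA4, an integrin gene, stood at 87.8 and 10.9, with 77.5% GC at the summit. In the other direction, a region near MIPOL1 stood at 4.98 with siINO80#1 and 83.3 with siINO80#2, from 19 and 42 reads. METAP2P1, NRP2, ARHGEF37 and LINC00683 followed, at 2.35 to 8.59 with siINO80#1 and 76.0 to 82.2 with siINO80#2. The GC content of these 5 windows was 31.5% to 41.5%, whereas that of the first 5 was 40.5% to 77.5%. Over all pairs the rank correlation of fold enrichment between the lists was 0.810.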

How the data were processed

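ATAC-seq peak lists of HepG2 cells were used, 1 for each of NTG, siINO80#1 and siINO80#2. The submitters' processing notes name Trim Galore 0.4.1, Bowtie2, SAMtools, MACS2 and deepTools 2.2.4 and the build hg19; call settings and the placement of reads with several matches are not given in the sources used here. The authors deposited for each peak a fold enrichment, which is a ratio of reads at the summit over local background, and p and q as −log10 values. Depth is unknown apart from the recovered read numbers.

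Intervals with several summits were counted once, by the summit of highest fold enrichment. Start sites, exons and genes were those of GENCODE 44 lifted to GRCh37. Members were matched, and motifs, GC content and genes were assigned, with Python 3.11.15, pandas 2.3.3, numpy 2.4.6, scipy 1.17.1 and pysam 0.24.0. Windows were aligned to the genome with blastn 2.17.0. Matching (against bedtools 2.31.1), read recovery, motif search and distances were tested on simulated data, and 100% of answers were right.

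The members and gene lists were chosen with earlier results of these data known. Named were, per siRNA, the 10 strongest intervals without a match with ties, the first 8 promoters and the 5 genes with most members with ties. Also named were the listed genes open with 1 siRNA, the 5 most unequal shared regions per direction and INO80. PECAM1, ATRX and SMARCA1 were not on the chromosomes analysed in the annotation used here, and DDX58 was looked up under its newer symbol RIGI. Some items that these rules select are not reported here. The alternatives were other significance thresholds, list sizes, widths, overlaps, distances, windows, chromosomes and strength classes.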

Additional observations from a re-analysis of the deposited data

Results flagged for a closer look

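Against NTG, 2 measures of the lists moved in opposite ways with the 2 siRNAs. The covered length was 0.348 Mb above NTG with siINO80#1 and −6.61 Mb relative to NTG with siINO80#2. The share of intervals within 1 kb of a start site was 25.2% with NTG. It was −0.396 points relative to NTG with siINO80#1 and 2.02 points above it with siINO80#2. In both measures siINO80#1 was thus close to NTG. Other measures moved the same way with both siRNAs. Relative to NTG, the number of intervals was −440 and −16385, and that of open protein-coding promoters −127 and −1423. The AP-1 share was 4.69 and 5.88 points above NTG. With 1 list per group these differences were not tested. The NTG list was shallower than both siINO80 lists, with a lowest background of 3.82 reads against 5.16 and 5.34.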

How the results depend on the processing

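No paired analysis was possible because the 3 replicates behind each siRNA were given as 1 list, and for the same reason no replicate could be left out. Of 112 values under alternatives, 46 stayed within the 95% interval (or 1.5 times the count) of the value reported and 64 moved beyond it. The other 2 changed sign, namely the difference in median percentile at equal list size and the SP/KLF difference in strength class 5. The AP-1 difference, reported as −0.356, also changed sign at equal list size (0.40) and in strength class 1 (0.243). Its reported interval included both signs, and these values are counted among the 64. The differences below are siINO80#1-only minus siINO80#2-only, in points.

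The unmatched shares of siINO80#1 and siINO80#2 were 33.3% and 12.5% when both lists were held to a −log10 q reaching 5, 16% and 4.98% with it in the list examined, 38.1% and 36.6% at equal list size, 56.6% and 38.4% with a 50% overlap, and 43.9% and 27.0% when an interval within 500 bp was a match. A common width of at least 144 bp gave 47.2% for siINO80#1.

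The difference in the start-site share, 4.38, became 9.33 with the −log10 q threshold in both lists, 9.17 with it in the list examined, 0.832 at equal list size, 5.04 with a 50% overlap and 5.86 in strength class 4 of 5. The difference in the share with an NTG match, 7.21, became 8.65, 10.97, 6.05 and 5.92 in the first 4 of these settings, 8.39 within 500 bp, and 3.86, 4.04, 5.81, 10.9 and 13.4 in strength classes 1 to 5.

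The difference in median percentile of fold enrichment was 3.65. It became 3.03 and 0.822 with the thresholds and 5.37 with a 50% overlap, it was 5.22 for the percentile of −log10 q, and it reversed to −1.45 at equal list size, a setting that by construction removes the weakest siINO80#1 intervals. The difference in median GC content, 1.5, became 2 with each threshold, 1 at equal list size, 2 in a 100 bp window, and 1, 2 and 1 in strength classes 2, 4 and 5, of which the classes were added after seeing the data.

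The AP-1 difference, −0.356 with an interval that held 0, became −7.46 and −6.24 with the thresholds, 0.40 at equal list size and −0.982 with a 50% overlap. In strength classes 1 to 5 it was 0.243, −1.53, −1.0, −6.71 and −6.81. The SP/KLF difference was −0.256 in strength class 5, which held 79 siINO80#2-only intervals, and above 0 in the other settings. Promoters open with 1 siRNA only numbered 535 with siINO80#1 and 44 with siINO80#2 with the threshold in the list examined, and 960 and 683 at equal list size. When the promoter interval itself had to be unmatched, a setting added after seeing the data, they numbered 1556 and 280. The cause of these changes was not tested.

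Members were mostly weak peaks, with a median of 18 reads at the summit, so a missing match in the other list does not show that a region was closed there.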
